A study of Mus musculus with 22 samples.

Results

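Described here are 37 genes of the NF-κB pathway and of inflammatory signalling, listed by name, as measured in blood-forming stem cells from the fetal liver of mice. They were chosen by function, with earlier results of these data known. Shares of these genes set against all genes are therefore not those of a blind list. Of the 37 genes, 36 were among the 22180 genes with a named probe, each with 1 probe. No probe was listed for Nfkb1, which encodes the p105 and p50 subunit, so it was not analysed here. The genes fall into NF-κB subunits (4 of 5 measured), NF-κB inhibitors and IκB family genes (4 of 4), feedback and signalling proteins (7 of 7), cytokines (5 of 5), chemokines (9 of 9), and surface and effector genes (7 of 7).

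All samples came from wild-type C57BL/6J embryos at E14.5. Cells of the fetal liver were grown on OP9-DL1, a stromal line that presents the Notch ligand Delta-like 1. After culture the SLAM LSK fraction was sorted, which is gated on lineage markers, Sca-1, Kit and SLAM family receptors. The groups were 1 µM gamma-secretase inhibitor (GSI) for 10 h (4 cultures), the solvent DMSO for 10 h (4 cultures), GSI for 4 h (7 cultures) and DMSO for 4 h (7 cultures), each on its own array, and each biological replicate was a pair of a GSI and a DMSO culture. No culture without OP9-DL1 and no uncultured sample was used here, so the level before culture is not given. Precision is set by the small number of arrays.

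NF-κB is a family of dimeric transcription factors that IκB proteins hold inactive in the cytoplasm. Signals from TNF, IL-1 or Toll-like receptors activate a kinase complex that marks IκB for destruction, and the freed dimers enter the nucleus and switch on cytokines, chemokines, adhesion molecules and their own inhibitors, which close a negative feedback loop. Inflammatory signalling is known to take part in the emergence of blood stem cells in the embryo, and the fetal liver is where these cells later expand. Gamma-secretase cuts Notch receptors, among other membrane proteins, and releases their active intracellular part, so GSI blocks Notch signalling.

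Where NF-κB could meet these genes was looked at in their promoter sequences. In RefSeq promoter windows of mouse build GRCm38.p6, which run from 250 bases before to 50 bases after the annotated start, 26 of the 37 genes had a window. The 10-letter κB consensus was searched on both strands, with overlapping matches counted as 1. It was found in a window of 13 of the 26 genes (50%), against 9.55% of all 27025 genes with a window. By role, a match was present in 2 of 3 subunit genes, 3 of 3 inhibitor genes, 3 of 6 feedback genes, 1 of 5 cytokine genes, 2 of 4 chemokine genes and 2 of 5 surface and effector genes with a window. A match is a description of letters, and its absence says only that these letters are not in this window. The upstream bases are shown for the 4 genes that had a match among those whose values are followed below in each array, with the κB match in capitals. Cxcl1 lies at chr5:90890995-90891244 (plus strand), Nfkbia at chr12:55492648-55492897 (minus strand), Tnfaip3 at chr10:19015411-19015660 (minus strand) and Sod2 at chr17:13007589-13007838 (plus strand), each sequence ending at the last base before the start.
Cxcl1: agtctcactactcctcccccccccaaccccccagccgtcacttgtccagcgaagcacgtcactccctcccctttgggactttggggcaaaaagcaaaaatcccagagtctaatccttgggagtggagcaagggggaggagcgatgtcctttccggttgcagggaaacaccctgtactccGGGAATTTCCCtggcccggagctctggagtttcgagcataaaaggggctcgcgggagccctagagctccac
Nfkbia: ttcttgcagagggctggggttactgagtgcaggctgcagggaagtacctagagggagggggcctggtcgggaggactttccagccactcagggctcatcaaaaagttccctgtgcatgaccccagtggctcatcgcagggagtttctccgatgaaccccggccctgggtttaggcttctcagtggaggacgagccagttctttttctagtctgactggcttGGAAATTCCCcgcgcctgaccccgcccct
Tnfaip3: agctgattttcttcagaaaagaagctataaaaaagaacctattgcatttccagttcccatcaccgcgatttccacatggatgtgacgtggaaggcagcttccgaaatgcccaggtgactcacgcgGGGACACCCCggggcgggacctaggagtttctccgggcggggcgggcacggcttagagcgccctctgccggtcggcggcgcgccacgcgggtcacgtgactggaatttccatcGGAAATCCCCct
Sod2: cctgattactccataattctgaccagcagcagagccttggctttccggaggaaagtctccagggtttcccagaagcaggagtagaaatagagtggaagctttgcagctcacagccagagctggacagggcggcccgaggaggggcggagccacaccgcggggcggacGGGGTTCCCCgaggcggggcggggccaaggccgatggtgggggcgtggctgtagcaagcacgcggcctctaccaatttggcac

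The Cxcl1 match spans 71 to 61 bases before the start and is longer than the consensus because overlapping matches were merged. The Nfkbia match lies close to the start, 29 to 20 bases before it. Tnfaip3 has 2 matches, 125 to 116 and 12 to 3 bases before the start, and the Sod2 match lies 83 to 74 bases before it. Of the genes followed below, Il1a, Il1b, Tnf, Ccl3, Ccl22, Saa3, Irak3, Traf1, Birc3 and Rela had a window and no match.

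Values are log2 expression, so a difference of 1 is a doubling, and every difference is GSI minus DMSO. The median over genes per array was 4.67 to 4.79 in GSI and 4.70 to 4.81 in DMSO at 10 h, and 5.34 to 5.44 in GSI and 5.35 to 5.45 in DMSO at 4 h. The GSI effect was tested with limma over all 22180 genes with the pair as a block, and a gene was called where its Benjamini-Hochberg adjusted p was below 0.05. Hes1, a direct Notch target, served as the check of the block. It averaged 5.27 ± 0.050 in GSI and 6.62 ± 0.113 in DMSO cultures at 10 h (SD, n = 4 each), a difference of -1.36 ± 0.117 (SE, limma adjusted p = 4.7e-05), and fell in 4 of 4 pairs. At 4 h it averaged 7.44 ± 0.904 in GSI and 8.42 ± 0.713 in DMSO cultures (SD, n = 7 each), a difference of -0.97 ± 0.088 (SE, limma adjusted p = 0.000199), lower in 7 of 7 pairs. Codes in the sample descriptions, whose meaning is not given, put the 10 h pairs into run 1 (pairs 1 and 2) and run 2 (pairs 3 and 4), and the 4 h pairs into run 1 (pair 1), run 2 (pairs 2 and 3) and run 3 (pairs 4 to 7). Of the markers of the sorted cell, Kit averaged 9.30 in GSI and 9.14 in DMSO at 10 h and 10.0 in GSI and 9.97 in DMSO at 4 h. Slamf1, which encodes the SLAM receptor CD150 of the gate, averaged 4.01 in GSI and 3.98 in DMSO at 4 h, below the median of every 4 h array, and 4.97 in GSI and 4.74 in DMSO at 10 h. In these bulk samples, fewer cells of a type and less RNA per cell cannot be told apart.

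None of the 36 measured genes passed the test for the GSI effect at 10 h, at 4 h, or for the difference between the times. Over all genes the same rule called 0.667% at 10 h (148 genes), 0.00451% at 4 h (1 gene) and 0.018% for the difference (4 genes). At an unadjusted p below 0.05 the counts were 11 of 36 at 10 h (30.6%), against 14.1% of all genes, 5 of 36 at 4 h (13.9%), against 4.21%, and 8 of 36 for the difference (22.2%), against 9.36%. The fit shares its spread between the times. Over pairs the SD of the difference had a median of 0.45 at 10 h and 0.28 at 4 h in these genes. Over all genes it was 0.24 and 0.21. The shared spread can thus make p too small at 10 h and for the difference, more so in these genes. Those shares therefore do not show an excess of GSI effects. The 11 at 10 h were Il1a, Il1b, Cxcl1, Cxcl16 and Tnfaip2 with lower means in GSI, and Rel, Bcl3, Tnip1, Birc3, Map3k8 and Ccl22 with higher means in GSI. The 5 at 4 h were Ccl2, Ccl3, Ccl4, Ccl7 and Cd40, all with higher means in GSI.

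The direction within pairs gives another view without a test. At 10 h, 5 genes were higher in GSI in every pair (Tnip1, Birc3, Map3k8, Ccl22 and Saa3; 8.47% of all genes were), and 3 were lower in every pair (Il1b, Cxcl1 and Cxcl16; 8.2% of all genes were). At 4 h, 7 genes were higher in GSI in all 7 pairs (Nfkb2, Rela, Ccl3, Ccl4, Ccl7, Cxcl2 and Cd40), which is 19.4% of the 36, against 1.01% of all genes. No gene of the 36 was lower in all 7 pairs, against 0.807% of all genes. The 36 genes share arrays and several share a locus, so these counts are not over independent genes.

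**Figure D1:**
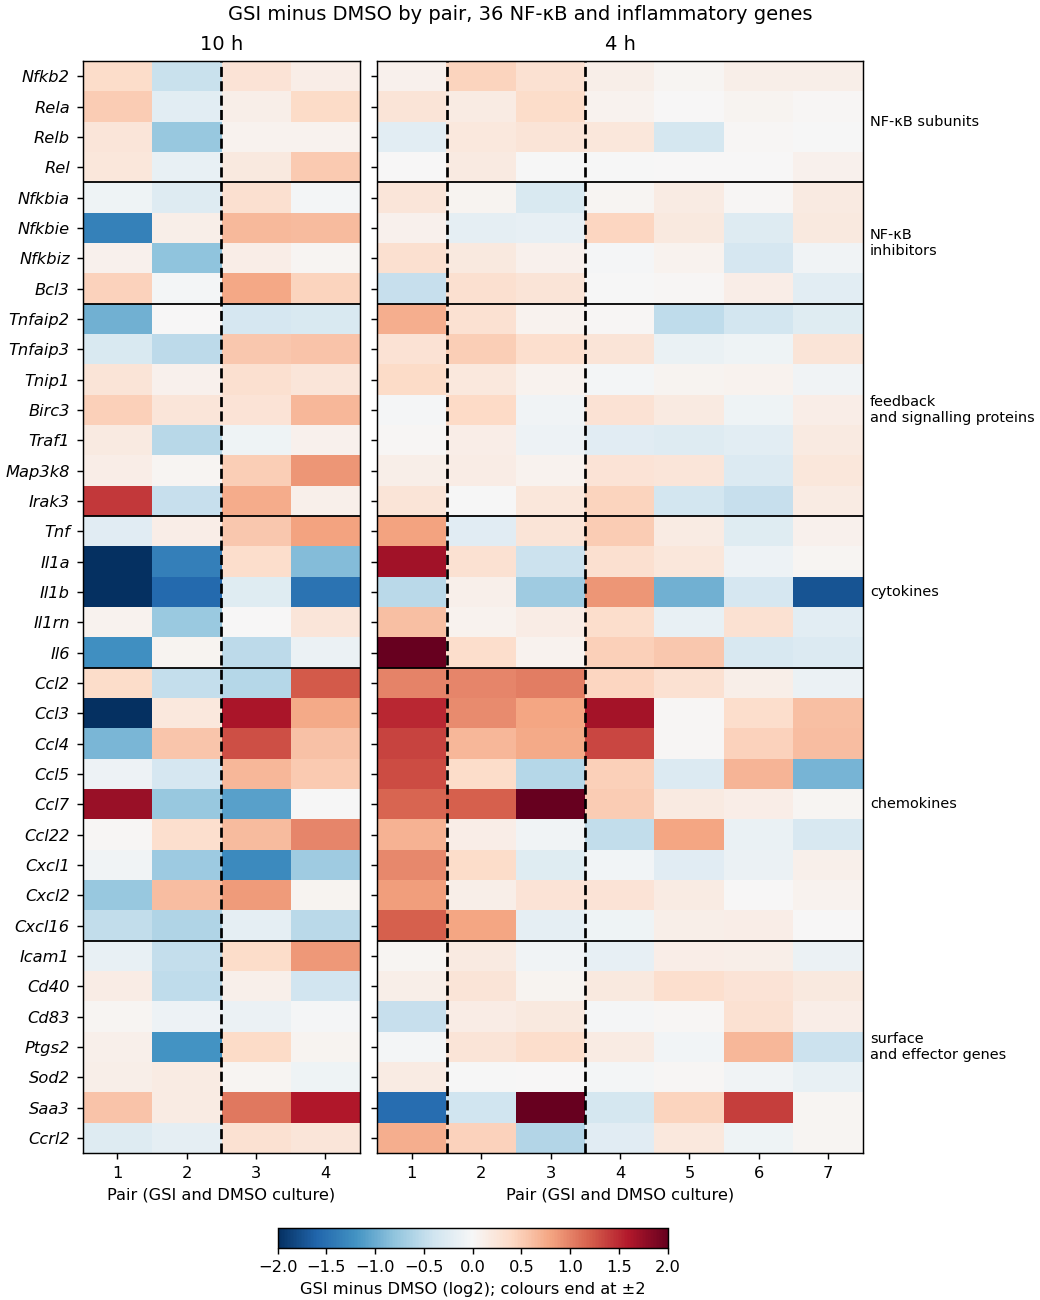
GSI minus DMSO (log2) in each pair for the 36 measured genes (rows, grouped by role) at 10 h (4 pairs) and 4 h (7 pairs). Red is higher and blue lower in GSI, colours end at 2 in either direction, and dashed lines separate the runs. The chemokine rows are red across most 4 h pairs, with the highest median over the 9 genes in pair 1 (1.16), while Il1a and Il1b are dark blue in 10 h pairs 1 and 2.

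None of the NF-κB subunits passed the test at either time. Their median difference was 0.14 at 10 h, with 3 of 4 positive, and 0.09 at 4 h, with 4 of 4 positive. With a pair left out the 10 h median ran from 0.042 without pair 1, with 2 of 4 positive, to 0.29 without pair 2. Rela encodes p65, the subunit with the main transactivation domain. It had 8.43, 8.81, 8.69 and 8.31 in the 10 h GSI cultures of pairs 1 to 4, against 7.93, 9.02, 8.57 and 7.92 in the DMSO cultures. The GSI values lay within the range of the DMSO values, and the difference was 0.20 ± 0.100 (SE, limma adjusted p = 0.391). At 4 h Rela ran from 9.76 over a median of 9.91 to 10.31 in GSI, against 9.42, 9.86 and 10.08 in DMSO (lowest, median and highest of 7). The groups overlapped, yet all 7 pairs were higher in GSI, by 0.01 to 0.37, with a mean of 0.14 ± 0.076 (SE, limma adjusted p = 0.999). Nfkb2, which encodes p100 and p52 of the non-canonical arm, was likewise higher in GSI in 7 of 7 pairs at 4 h, by 0.04 to 0.44. Rel, the haematopoietic subunit c-Rel, had a difference of 0.20 at 10 h and 0.04 at 4 h, and Relb, the partner of p52, had -0.09 and 0.02.

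The IκB family genes had a median difference of -0.0018 at 10 h, with 2 of 4 positive, and of 0.04 at 4 h, with 4 of 4 positive. Without pair 3 and without pair 1 the 10 h median was -0.17 and 0.20. Nfkbia encodes IκBα, the inhibitor that NF-κB itself induces, and its level is often read as a sign of pathway activity. It had 8.20, 7.94, 9.19 and 9.28 in the 10 h GSI cultures, against 8.28, 8.20, 8.86 and 9.32 in the DMSO cultures. The cultures of pairs 3 and 4 were higher than those of pairs 1 and 2 in either treatment, and the GSI difference was -0.01 ± 0.097 (SE, limma adjusted p = 0.967). At 4 h Nfkbia ran from 9.31 over 9.79 to 10.56 in GSI, against 9.32, 9.70 and 10.53 in DMSO, with a difference of 0.06 ± 0.073 (SE, limma adjusted p = 0.999). Bcl3, an IκB protein that can activate p50 and p52 dimers in the nucleus, had a difference of 0.41 at 10 h (limma adjusted p = 0.176), with 3 of 4 pairs higher, and 0.01 at 4 h. Nfkbie (IκBε) and Nfkbiz (IκBζ) had 10 h differences of 0.01 and -0.14, and each of these means rests on pairs that disagree. In Nfkbie pair 1 was at -1.35 and pairs 3 and 4 at 0.66 and 0.63, and in Nfkbiz pair 2 was at -0.80 and the other pairs between 0.03 and 0.14.

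Among the feedback and signalling proteins 5 of 7 had higher means in GSI at 10 h, with a median difference of 0.23, and 6 of 7 at 4 h, with a median of 0.10. Birc3 encodes cIAP2, a ubiquitin ligase of the TNF receptor complex. It had 7.18, 7.63, 8.56 and 8.52 in the 10 h GSI cultures, against 6.70, 7.39, 8.28 and 7.86 in the DMSO cultures. All 4 pairs were higher in GSI although the groups overlapped, and the difference of 0.42 ± 0.104 (SE) had a limma adjusted p of 0.0786. Map3k8, the kinase TPL2 that links NF-κB p105 to MAP kinases, and Tnip1, a partner of the ubiquitin-editing enzyme A20, were also higher in 4 of 4 pairs, by 0.05 to 0.88 and by 0.09 to 0.31. Tnip1 had the steadier shift, with an SD of 0.096 over pairs, against 0.382 for Map3k8.

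Tnfaip3, which encodes A20, had 5.35, 5.99, 6.41 and 6.58 in the 10 h GSI cultures, against 5.65, 6.52, 5.87 and 6.02 in the DMSO cultures. It was lower in GSI in pairs 1 and 2 and higher in pairs 3 and 4, so the difference of 0.07 ± 0.165 (SE, limma adjusted p = 0.891) was -0.41 in run 1 and 0.55 in run 2. At 4 h Tnfaip3 ran from 7.55 over 8.06 to 8.998 in GSI, against 7.19, 7.79 and 9.09 in DMSO, with 5 of 7 pairs higher and a difference of 0.20 ± 0.124 (SE, limma adjusted p = 0.999). Irak3 encodes IRAK-M, a brake on Toll-like receptor signalling. It had 6.87, 6.28, 6.31 and 5.91 in the 10 h GSI cultures, against 5.46, 6.74, 5.57 and 5.80 in the DMSO cultures. Pair 1 was at 1.41 and pair 2 at -0.47, and the mean difference was 0.45 ± 0.223 (SE, limma adjusted p = 0.384). At 4 h Irak3 ran from 5.38 over 6.87 to 7.73 in GSI, against 5.84, 6.78 and 7.51 in DMSO, a difference of 0.04 ± 0.168 (SE, limma adjusted p = 0.999).

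Traf1, an adaptor of the TNF receptor family, had the second most negative difference at 4 h. It ran from 5.65 over 6.15 to 7.74 in GSI, against 5.87, 6.11 and 7.72 in DMSO, and the highest value of either group came from pair 1. The difference was -0.07 ± 0.096 (SE, limma adjusted p = 0.999), with 3 of 7 pairs higher. At 10 h its values were 4.83, 4.62, 5.11 and 5.15 in GSI, against 4.65, 5.18, 5.20 and 5.06 in DMSO (difference -0.10 ± 0.127, SE, limma adjusted p = 0.785). Tnfaip2, a TNF-induced gene, had a difference of -0.40 at 10 h, of which pair 1 gave -0.96, and 0.00 at 4 h.

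The cytokines Il1b and Il1a gave the lowest differences of the 36 genes at 10 h. The median difference of the cytokines was -0.46, with 1 of 5 positive, and 0.19 at 4 h, with 4 of 5 positive. Without pair 1 of each time it was -0.20 at 10 h and 0.083 at 4 h. Il1b encodes IL-1β, which signals back into NF-κB through the IL-1 receptor. It had 5.01, 6.83, 8.26 and 7.71 in the 10 h GSI cultures, against 7.64, 8.39, 8.50 and 9.18 in the DMSO cultures. Each GSI culture was below its own DMSO partner, with differences of -0.25 in pair 3 and -2.63 to -1.47 in the other pairs, though the groups overlapped. The difference of -1.48 ± 0.341 (SE), 2.78-fold lower in GSI, had a limma adjusted p of 0.0637, and of 0.0399 where only genes at or above the median level were tested, a setting in which Birc3 passed too. The limma adjusted p of Il1b was 0.204 with the spread set by time, 0.392 with the 10 h arrays alone and 0.864 with no pair block.

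Il1a lies next to Il1b on chromosome 2 with no protein-coding gene between them and encodes IL-1α, the second ligand of the same receptor. It had 4.17, 5.86, 6.18 and 4.53 in the 10 h GSI cultures, against 7.16, 7.22, 5.83 and 5.40 in the DMSO cultures. The GSI culture was lower in pairs 1, 2 and 4 and higher in pair 3, by 0.35, and the difference was -1.22 ± 0.374 (SE, limma adjusted p = 0.144). Without pair 3 both genes passed, Il1b at -1.89 (limma adjusted p = 0.0238) and Il1a at -1.74 (limma adjusted p = 0.0378). Without pair 1 neither passed, Il1b at -1.09 (limma adjusted p = 0.235) and Il1a at -0.62 (limma adjusted p = 0.475). In run 1 alone Il1a was at -2.18 (limma adjusted p = 0.0239) and in run 2 alone at -0.25 (limma adjusted p = 0.822). Il1b was at -2.09 in run 1 (limma adjusted p = 0.0885) and -0.86 in run 2 (limma adjusted p = 0.499).

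At 4 h the IL-1 genes did not share a direction. Il1b ran from 4.92 over 7.27 to 10.19 in GSI, against 6.44, 7.80 and 10.72 in DMSO, with 2 of 7 pairs higher and a difference of -0.47 ± 0.258 (SE, limma adjusted p = 0.999). Il1a ran from 8.46 over 9.73 to 10.62 in GSI, against 8.05, 9.33 and 10.73 in DMSO, with 5 of 7 pairs higher and a difference of 0.29 ± 0.283 (SE, limma adjusted p = 0.999). The 10 h effect minus the 4 h effect was -1.01 ± 0.428 for Il1b (limma adjusted p = 0.49) and -1.51 ± 0.469 for Il1a (SE, limma adjusted p = 0.404).

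Markers of other cells were read at 10 h beside the IL-1 genes. Of 16 macrophage markers 3 had a positive difference, none was called, and their mean level was 4.87 to 5.49 in GSI, against 4.99 to 6.01 in DMSO. By pair their median difference was -0.25, -0.59, -0.00054 and -0.11. Of 22 stromal markers 2 had a positive difference, 1 fell (Cd248, named after its value was seen), and their mean level was 5.06 to 6.13 in GSI, against 5.44 to 6.75 in DMSO. By pair their median difference was 0.12, -0.57, -0.61 and -0.20. Of 18 neutrophil and monocyte markers 7 had a positive difference and 1 rose, Csf3r by 0.88 (limma adjusted p = 0.00816, named after its value was seen). The endothelial list had 8 of 14 positive and the hepatocyte list 4 of 13. By pair the median difference was 0.09, -0.54, 0.11 and -0.06 over the neutrophil and monocyte list. It was 0.31, -0.16, -0.18 and -0.11 over the endothelial list, and -0.33, -0.56, 0.83 and -0.25 over the hepatocyte list. Of 12 measured genes listed for the sorted stem cell 10 had a positive difference and 3 rose (Flt3, Mecom and Hlf, named after their values were seen). None of the 3 is a receptor of the gate as described above. Kit and Slamf1, which are, had 0.16 and 0.23 and did not pass (limma adjusted p = 0.455 and 0.456). The part of macrophages, stromal and other cells in the cytokine values was not tested.

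None of the other cytokines passed the test. Tnf encodes TNF, the cytokine that gives the best known signal into NF-κB, and had 7.49, 7.73, 8.67 and 8.98 in the 10 h GSI cultures, against 7.72, 7.60, 8.13 and 8.18 in the DMSO cultures. It was higher in GSI in 3 of 4 pairs, and the difference of 0.31 ± 0.167 (SE) had a limma adjusted p of 0.42. At 4 h Tnf ran from 8.61 over 9.25 to 10.52 in GSI, against 8.53, 8.99 and 10.24 in DMSO, with 5 of 7 pairs higher and a difference of 0.19 ± 0.126 (SE, limma adjusted p = 0.999). Il6, an acute-phase cytokine, stayed below the array median on average at either time, with a difference of -0.46 at 10 h and 0.41 at 4 h. The 4 h value rests largely on pair 1, at 1.99, with the other pairs between -0.31 and 0.54, and without pair 1 it was 0.14. Il1rn, the IL-1 receptor antagonist, had -0.11 at 10 h and 0.16 at 4 h.

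**Figure D2:**
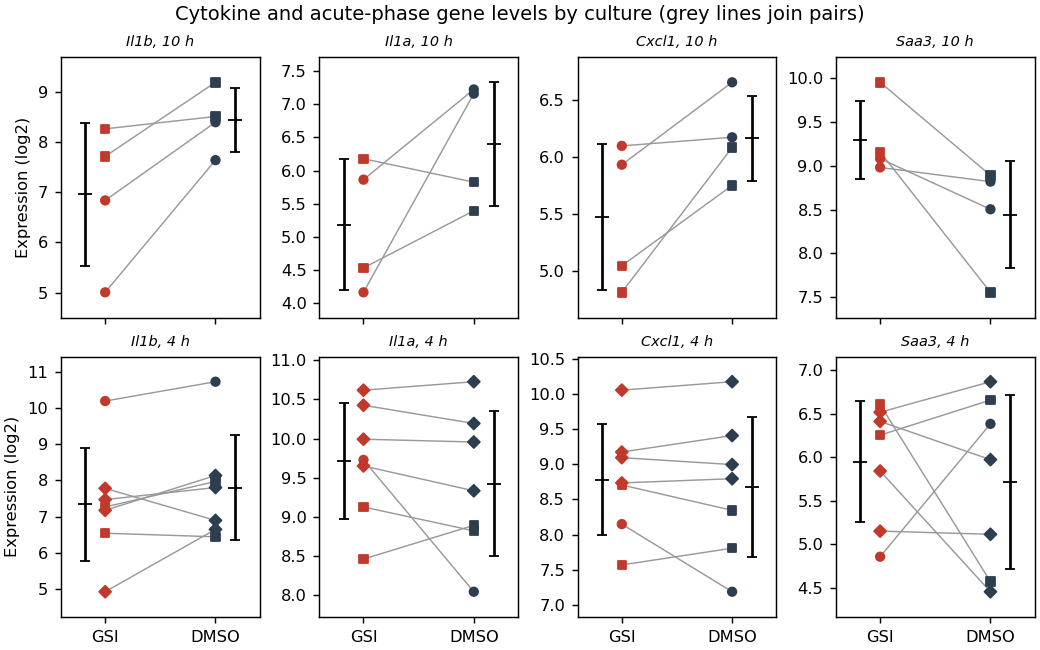
Log2 expression of Il1b, Il1a, Cxcl1 and Saa3 in each GSI (red, left) and DMSO (dark, right) culture at 10 h (top, 4 pairs) and 4 h (bottom, 7 pairs). Grey lines join pairs, circles, squares and diamonds are runs 1, 2 and 3, and black bars are mean ± SD; Il1b and Cxcl1 lie lower in GSI in 4 of 4 pairs at 10 h and Saa3 higher in 4 of 4, and at 4 h the lines of each gene run both ways.

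The chemokines had higher means in GSI at 4 h in 9 of 9 genes. Their median difference was 0.28, against 0.01 over all genes, and 0.14 at 10 h, with 6 of 9 positive. Ccl3 and Ccl4 encode the inflammatory chemokines MIP-1α and MIP-1β and are neighbours on chromosome 11. Ccl3 ran from 7.81 over 9.13 to 10.56 in GSI at 4 h, against 7.21, 8.69 and 9.78 in DMSO. Every pair was higher in GSI, by 0.02 to 1.66, and the difference of 0.84 ± 0.305 (SE) had a limma adjusted p of 0.999. Ccl4 ran from 7.45 over 9.45 to 11.17 in GSI, against 6.84, 8.78 and 10.19 in DMSO. Again every pair was higher in GSI, by 0.03 to 1.35, and the difference of 0.75 ± 0.196 (SE), 1.68-fold, had a limma adjusted p of 0.897.

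The monocyte chemokines MCP-1 and MCP-3, ligands of CCR2, are encoded by Ccl2 and Ccl7, which also lie side by side on chromosome 11. Ccl7 ran from 8.91 over 9.51 to 10.86 in GSI at 4 h, against 7.84, 9.002 and 9.70 in DMSO. All 7 pairs were higher in GSI, by 0.04 to 2.10, and the difference was 0.76 ± 0.277 (SE, limma adjusted p = 0.999). Ccl2 had a median percentile rank of 98.9% in GSI and 98.6% in DMSO among the genes of its 4 h arrays, and a difference of 0.53 ± 0.181 (SE, limma adjusted p = 0.999), with 6 of 7 pairs higher. The larger differences of both genes came from pairs 1, 2 and 3, with 0.98 to 1.03 for Ccl2 and 1.16 to 2.10 for Ccl7, while in pairs 4 to 7 they were -0.12 to 0.43 and 0.04 to 0.51.

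The chemokine shift at 4 h differed in size between the runs. The median of the 9 genes was 1.16 in run 1, which is pair 1, 0.30 in run 2 and 0.13 in run 3. By pair it was 1.16, 0.67, 0.27, 0.43, 0.12, 0.13 and 0.04 in pairs 1 to 7. Without pair 1 it was 0.15, with 6 of 9 positive. Pair 1 also had a median of 0.57 over the macrophage markers (14 of 16 positive), 0.94 over the neutrophil and monocyte markers (16 of 18) and 0.80 over the stromal markers (21 of 22). Over all 4 h pairs those lists had medians of 0.06, 0.16 and 0.07 and no called gene, and without pair 1 they had -0.0012, -0.0055 and 0.0031. Their mean levels at 4 h were 5.89 to 7.50 in GSI and 6.05 to 7.57 in DMSO for macrophage, 6.30 to 7.85 in GSI and 6.37 to 8.00 in DMSO for neutrophil and monocyte, and 6.43 to 7.73 in GSI and 6.53 to 8.03 in DMSO for stromal markers. In pair 1 the hepatocyte list had a median of 0.54 (10 of 13 positive) and the endothelial list 0.07 (8 of 14). Over all 4 h pairs they had -0.03 and -0.01. The part of all these lists in the chemokine values was not tested.

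At 10 h the same chemokines split by pair. Ccl3 had 5.76, 9.09, 9.09 and 8.39 in GSI, against 7.89, 8.88, 7.45 and 7.64 in DMSO (difference 0.12 ± 0.403, SE, limma adjusted p = 0.927). Ccl4 had 6.59, 7.58, 8.68 and 8.32 in GSI, against 7.51, 7.02, 7.39 and 7.74 in DMSO (difference 0.38 ± 0.259, SE, limma adjusted p = 0.541). Pair 1 was lower in GSI for either gene and pairs 2 to 4 were higher. Ccl7 had 8.60, 8.11, 7.60 and 7.92 in GSI, against 6.87, 8.87, 8.68 and 7.94 in DMSO (difference -0.03 ± 0.367, SE, limma adjusted p = 0.985), and there pair 1 was the only pair higher in GSI. The median of the 9 chemokines was -0.18 in run 1 and 0.45 in run 2.

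**Figure D3:**
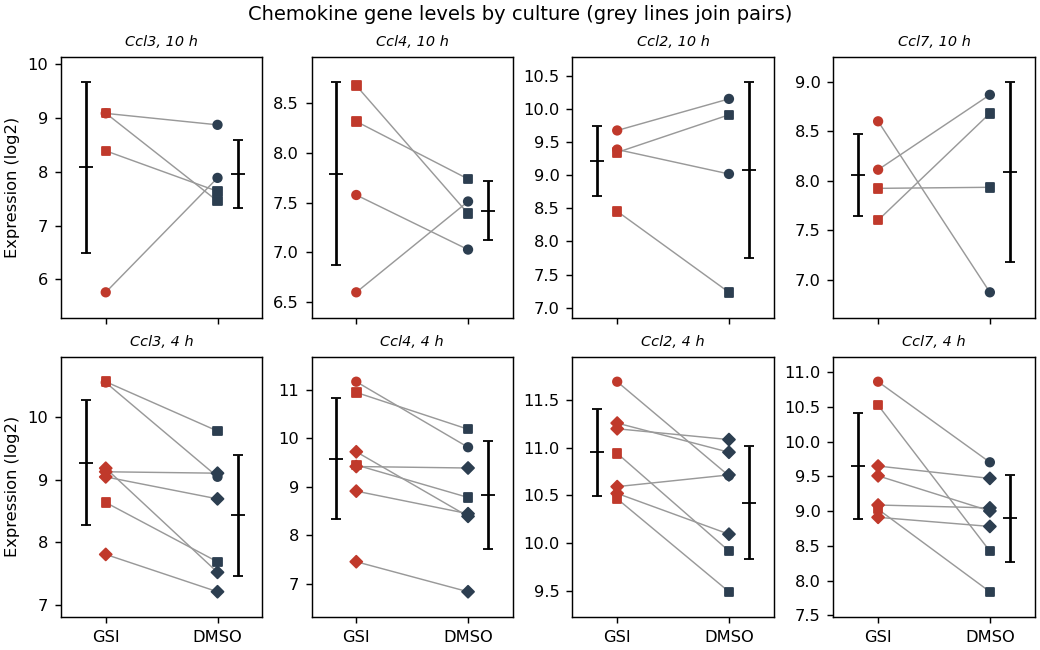
Log2 expression of the neighbouring chemokine genes Ccl3 and Ccl4, and Ccl2 and Ccl7, in each GSI (red, left) and DMSO (dark, right) culture at 10 h (top) and 4 h (bottom). Grey lines join pairs, circles, squares and diamonds are runs 1, 2 and 3, and black bars are mean ± SD; at 4 h Ccl3, Ccl4 and Ccl7 are higher in GSI in 7 of 7 pairs, and at 10 h the lines cross.

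Cxcl1 was the chemokine with the lowest 10 h difference. It encodes KC, a neutrophil attractant read by CXCR2, and its promoter holds the κB match shown above. Cxcl1 had 6.10, 5.93, 4.82 and 5.05 in the 10 h GSI cultures, against 6.18, 6.66, 6.09 and 5.75 in the DMSO cultures. Each GSI culture was below its partner, with differences of -1.27 to -0.08, while the groups overlapped. The difference was -0.69 ± 0.188 (SE), 1.62-fold lower in GSI (limma adjusted p = 0.103). At 4 h Cxcl1 ran from 7.57 over 8.73 to 10.06 in GSI, against 7.19, 8.80 and 10.18 in DMSO, with a difference of 0.11 ± 0.142 (SE, limma adjusted p = 0.999). The 10 h effect minus the 4 h effect was -0.80 ± 0.236 (SE), and its limma adjusted p of 0.403 was the lowest of the 36 genes.

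Its neighbour on chromosome 5, Cxcl2, which also signals through CXCR2, had a higher mean in GSI. The difference of Cxcl2 was 0.19 at 10 h, with 3 of 4 pairs higher in GSI, and 0.25 at 4 h, with 7 of 7 higher. Cxcl16, a membrane-bound ligand of CXCR6, was lower in 4 of 4 pairs at 10 h, at -0.60 to -0.19 (difference -0.45, limma adjusted p = 0.256), and had 0.28 at 4 h, where pairs 1 and 2 gave 1.19 and 0.78 and the other pairs -0.18 to 0.14. Ccl22, the CCR4 ligand MDC, had 6.80, 7.74, 7.98 and 7.21 in the 10 h GSI cultures, against 6.77, 7.40, 7.35 and 6.23 in the DMSO cultures. It was higher in GSI in 4 of 4 pairs, by 0.03 to 0.98, and the difference was 0.50 ± 0.197 (SE, limma adjusted p = 0.262). At 4 h Ccl22 ran from 3.77 over 4.02 to 6.59 in GSI, against 3.91, 4.23 and 5.89 in DMSO, and pair 1 was highest in either group (difference 0.09 ± 0.149, SE, limma adjusted p = 0.999). Ccl5, which encodes RANTES, had 0.19 at 10 h and 0.15 at 4 h, with pairs on either side of 0 at both times.

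The surface and effector genes held the highest 10 h difference of the 36 genes, in Saa3. Saa3, an acute-phase serum amyloid A protein, had 9.08, 8.98, 9.95 and 9.15 in the 10 h GSI cultures, against 8.50, 8.82, 8.89 and 7.56 in the DMSO cultures. Its lowest GSI value, 8.98, lay just above its highest DMSO value, 8.89. The difference of 0.85 ± 0.401 (SE), 1.80-fold, had a limma adjusted p of 0.359. At 4 h Saa3 ran from 4.86 over 6.25 to 6.61 in GSI, against 4.46, 5.97 and 6.87 in DMSO, and single pairs lay anywhere between -1.53 and 2.03 (difference 0.23 ± 0.303, SE, limma adjusted p = 0.999).

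Sod2, the mitochondrial superoxide dismutase and a long-known NF-κB target, had the smallest SD of the 36 genes among the 4 h DMSO cultures, at 0.15. It had 8.69, 8.76, 8.88 and 8.82 in the 10 h GSI cultures, against 8.57, 8.60, 8.84 and 8.90 in the DMSO cultures (difference 0.06 ± 0.078, SE, limma adjusted p = 0.771). At 4 h it ran from 8.55 over 8.62 to 8.96 in GSI, against 8.48, 8.65 and 8.96 in DMSO (difference -0.01 ± 0.059, SE, limma adjusted p = 0.999). The groups overlapped at either time. Cd40, a TNF receptor family member that activates the non-canonical arm, was higher in GSI in 7 of 7 pairs at 4 h, by 0.06 to 0.34, with a mean of 0.21, and had -0.16 at 10 h. Icam1 (adhesion to leukocyte integrins), Cd83 (a maturation marker of dendritic cells), Ptgs2 (the prostaglandin enzyme COX-2) and Ccrl2 (a chemerin-binding receptor) had differences of -0.17 to 0.15 at 10 h and 0.02 to 0.13 at 4 h.

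**Figure D4:**
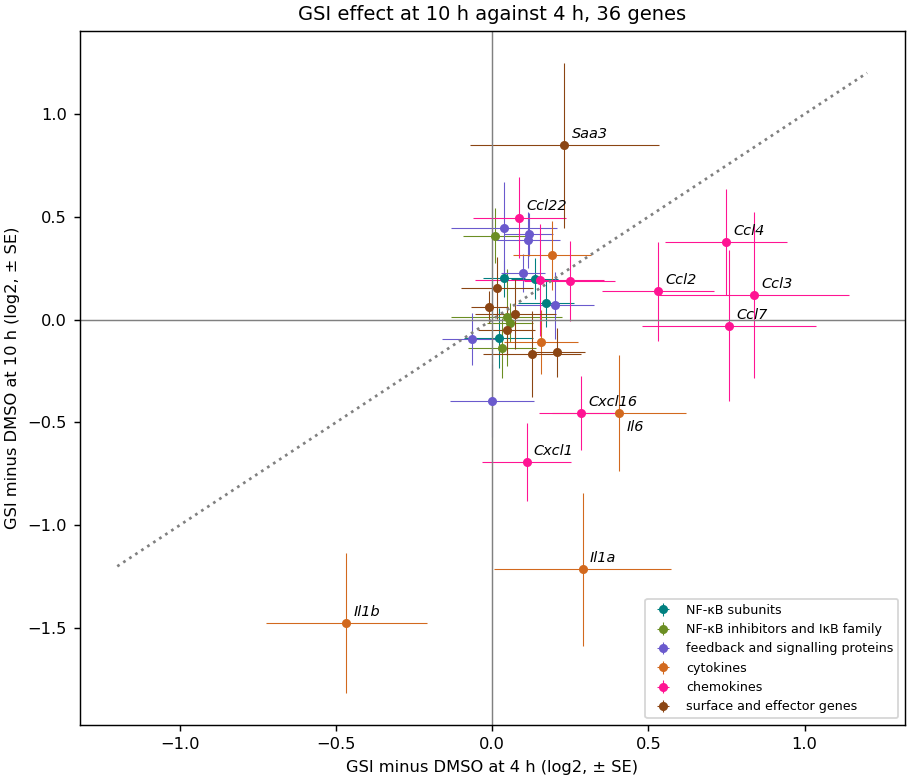
GSI minus DMSO (log2, ± SE) of each of the 36 genes at 10 h (vertical) against 4 h (horizontal), coloured by role; the dotted line marks equal effects. Ccl2, Ccl3, Ccl4 and Ccl7 lie farthest to the right, between -0.03 and 0.38 on the vertical axis, and Il1a, Il1b and Cxcl1 lie lowest.

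Set against each other, the times gave different leading genes. The median over the 36 genes was 0.07 at 10 h (21 positive), against -0.01 over all genes (46.2% positive), and it was 0.00064 after quantile and -0.0020 after cyclic loess normalization. At 4 h the median was 0.12 (33 of 36 positive), against 0.01 over all genes (54.3% positive), and 0.11 under either normalization. By run it was -0.18 and 0.26 in runs 1 and 2 at 10 h, and 0.27, 0.15 and 0.07 in runs 1, 2 and 3 at 4 h. The difference of the effects, 10 h minus 4 h, had a median of -0.08, with 13 of 36 positive. Lowest in it were Il1a, Il1b, Il6 (-0.86), Cxcl1, Ccl7 (-0.79) and Cxcl16 (-0.74), none of which passed.

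The spread between cultures of the same group was wide for these genes. The SD over DMSO cultures had a median of 0.48 at 10 h, against 0.22 over all genes, and of 0.65 at 4 h, against 0.19, and it was above the median of all genes in 33 and 35 of the 36. It was largest for Ccl2 at 10 h (1.32) and for Il1b at 4 h (1.45). The GSI difference was smaller than this SD in 28 of 36 genes at 10 h and in 35 of 36 at 4 h. This SD holds the variation between pairs, which the pair block removes, and the count over all genes was not made. Within pairs the SD of the difference had a median of 0.45 at 10 h and 0.28 at 4 h, against 0.24 and 0.21 over all genes. Certain cultures were high for many genes at once: among the 4 h DMSO cultures pair 6 was highest for 17 of the 36 and pair 1 for 11, among the 4 h GSI cultures pair 1 was highest for 18 and pair 6 for 14, and among the 10 h GSI cultures pair 3 was highest for 21 and pair 1 lowest for 21. These counts were not made over all genes, so they do not show a trait particular to the 36.

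Other genes of the pathway, a list of 49 receptors, adaptors, kinases, ubiquitin enzymes, further IκB proteins and A20-binding proteins of which 43 were measured, held 3 calls at 10 h and none at 4 h or for the difference. Tnip3, an A20-binding protein related to Tnip1, rose by 1.15 at 10 h (limma adjusted p = 0.0135), with means of 7.67 ± 0.994 in GSI and 6.52 ± 0.640 in DMSO (SD, n = 4 each). At 4 h it had a difference of 0.61 (limma adjusted p = 0.523) and was higher in GSI in 7 of 7 pairs. Tab2, which couples ubiquitin chains to the kinase TAK1, rose by 0.47 (limma adjusted p = 0.0442), and Tbk1, an IKK-related kinase, by 0.46 (limma adjusted p = 0.0486). Over all genes 0.667% were called at 10 h, 148 genes. That number was 19 with the spread set by time, 2 with the 10 h arrays alone and 0 with no pair block. The values of these 3 genes under other settings are not given here. The next gene was Irak1, a kinase of the IL-1 receptor, at 0.40 (limma adjusted p = 0.0967), which did not pass. The smallest p-values at 4 h after Tnip3 belonged to Tlr1 (-0.27), Tnfrsf1b (0.18) and Il1r1 (0.20), none of which passed (limma adjusted p = 0.999 for each).

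Levels at 10 h and 4 h were set side by side only as percentile ranks within each array and without a test, because the arrays of each time look normalized apart. The runs read from the sample codes are numbered anew within each time, and none holds both times. A time difference and a difference between these codes therefore cannot be told apart. In GSI cultures, 12 of the 36 genes (33.3%) ranked lower on every 10 h array than on any 4 h array, against 10.3% of all genes, and 4 (11.1%) ranked higher on every one, against 13.8%. In DMSO cultures the counts were 8 (22.2%) lower, against 9.12% of all genes, and 4 (11.1%) higher, against 11.9%. The 8 genes lower in DMSO were Rela, Rel, Tnfaip3, Tnip1, Il1a, Cxcl2, Icam1 and Cd40, and all 8 were also lower in GSI, where Nfkbiz, Ccl2, Cxcl1 and Cxcl16 joined them.

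Icam1 and Il1a were among the wider gaps. Icam1 had a median rank of 73.5% at 10 h and 95.2% at 4 h in GSI, and of 73.5% at 10 h and 96.0% at 4 h in DMSO. Il1a had a median rank of 55.2% at 10 h and 95.9% at 4 h in GSI, and of 71.7% at 10 h and 94.0% at 4 h in DMSO. The 4 genes that ranked higher at 10 h were the same in either treatment, Tnfaip2, Ccl22, Sod2 and Saa3. Ccl22 had 82.2% at 10 h and 25.4% at 4 h in GSI, and 78.2% at 10 h and 30.2% at 4 h in DMSO. Saa3 had 95.0% at 10 h and 59.7% at 4 h in GSI, and 92.6% at 10 h and 56.7% at 4 h in DMSO.

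**Figure D5:**
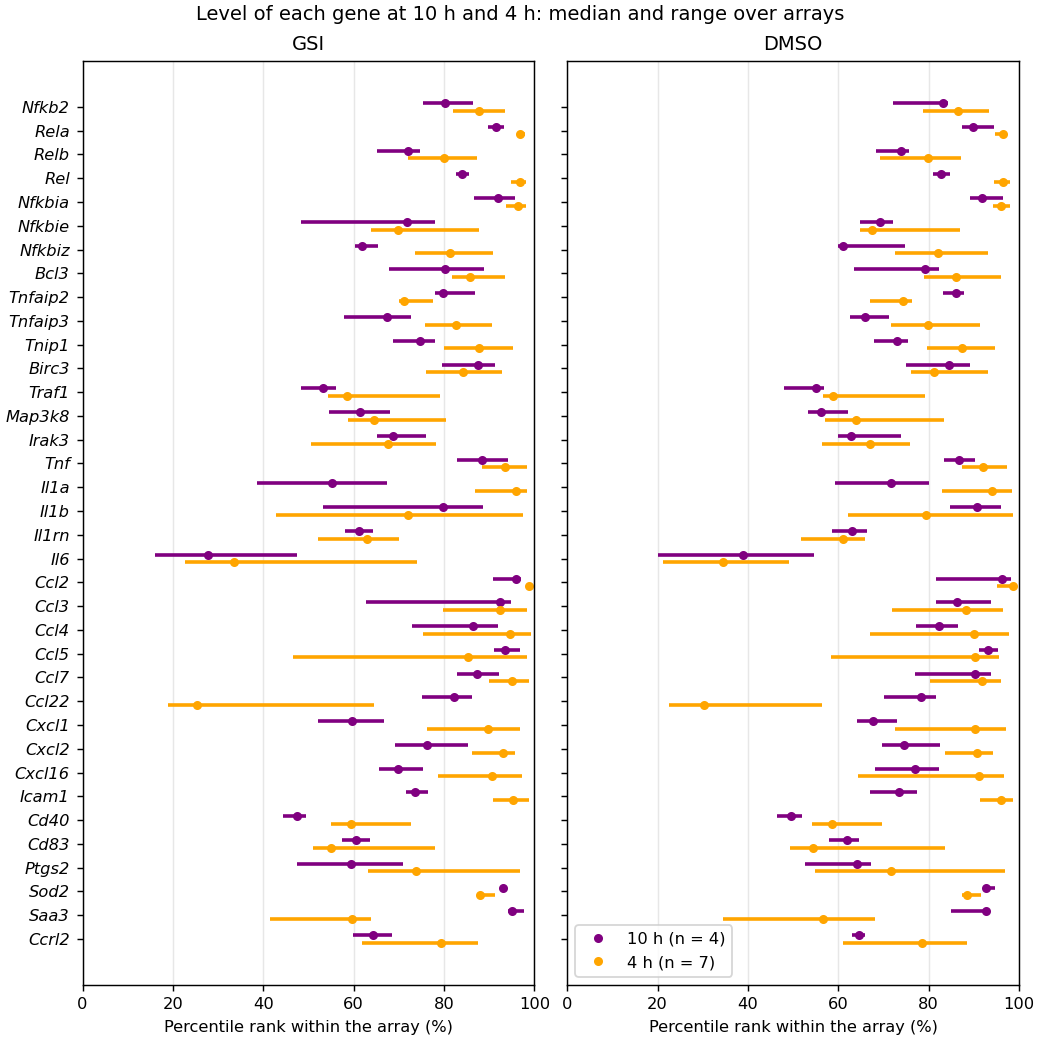
Percentile rank within the array (%) of each of the 36 genes at 10 h (purple, 4 arrays) and 4 h (orange, 7 arrays) in GSI (left) and DMSO (right); points are medians and bars run from the lowest to the highest array. Ccl22 and Saa3 stand far to the right at 10 h, and Il1a and Icam1 far to the right at 4 h.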

How the data were processed

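The deposited table holds log2 expression values that, per the submitters' processing notes, the authors made by RMA in Partek 6.6. The array's background and detection calls were not used here, and whether both times were normalized together is not given in the sources used here. The times differ by -0.68 (GSI) and -0.66 (DMSO) in the array median, and each of them is tight, so levels were not tested across times. The platform annotation gives 1 gene symbol for 23521 of the 41345 probes, several for 1814 and no symbol for 16010. Only probes with 1 symbol were used, and for the 1082 genes with more than 1 such probe the one with the highest mean was taken. No gene was removed for low signal. No 2 arrays correlated above 0.994, so none was a copy.

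GSI was compared with DMSO by limma 3.58.1 in R 4.3.3 (lmFit, eBayes with an intensity trend, 2-sided) in 1 fit to all 22 arrays with the pair as a fixed block, and p-values were adjusted over 22180 genes. The script was tested on simulated data with the same spread for every gene and both times. That test therefore does not show how the fit handles a spread that differs between genes or times. The pairing comes from the series' design text. Deviations from the group mean correlated between partners at 0.213 to 0.449 (10 h) and 0.223 to 0.872 (4 h). Values by run are means over the pairs of a run. The 37 genes, their roles and the marker lists were chosen with earlier results of these data known. Every array or pair is given for the 3 highest and 3 lowest differences at each time and for Nfkbia, Rela, Tnfaip3 and Tnf. Birc3 is given by array at 10 h outside this rule, and other genes are given by range or count. Alternatives were other normalizations and variance settings, a level filter, all probes averaged, each pair left out, each time or run alone, and no block.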

Additional observations from a re-analysis of the deposited data

Results flagged for a closer look

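Dixon's test for a value far from all others was run on the pair differences of each of the 36 measured genes and on their median by pair, at 10 h and at 4 h. Levels were examined in each group only for the 15 genes given by array or pair under the rule above. This leaves out the levels of Birc3 and the other genes. Of 134 sets 12 held such a value, and chance alone gives about 1 in 20. Of the 12 sets, 7 are differences between GSI and DMSO. At 4 h, pair 1 stood apart in Il1a (1.68, next 0.32), Il6 (1.99, next 0.54), Cxcl2 (0.84, next 0.27) and Cd83 (-0.46, next -0.02), pair 3 in Nfkbia (-0.31, next 0.03) and pair 6 in Map3k8 (-0.28, next 0.07). At 10 h, pair 2 stood apart in Nfkbiz (-0.80, next 0.03). The other 5 sets are levels at 4 h. The GSI culture of pair 1 was far above the others in Traf1 (7.74, next 6.36), and its DMSO culture in Traf1 (7.72, next 6.62), Ccl22 (5.89, next 4.60) and Il1b (10.7, next 8.13). The GSI culture of pair 3 was far above the others in Sod2 (8.96, next 8.67). Pair 1 at 4 h thus accounts for 8 of the 12 sets. Its GSI minus DMSO differences of the marker lists are given beside the chemokines. A link between them was not tested.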

How the results depend on the processing

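No setting called any of the 36 genes at 4 h or for the difference. At 10 h, 2 were called among genes at or above the median level (Il1b and Birc3), 2 without pair 3 (range 0 to 2 with a pair left out) and 1 in run 1 (Il1a). Genes called at 10 h, 148 in all, were 0 with no replicate block, 37 after quantile and 66 after cyclic loess normalization, 19 with the spread set by time, 91 with no trend, 286 among genes at or above the median, 2 with 10 h arrays alone, 60 in run 1, 26 in run 2 and 27 to 228 with a pair left out. At 4 h (1 in all) they were 0 with no replicate block, 3 with the spread set by time, 2 with 4 h arrays alone, 3 in run 2, 0 in run 3 and 1 to 3 with a pair left out. For the difference (4 in all) they were 0 with no replicate block, after quantile normalization, with the spread set by time and with pairs 4 and 5 averaged, and 0 to 7 with a pair left out. The members' 10 h median was -0.18 in run 1 and -0.05 to 0.15 with a pair left out. Of the 36 genes, 16 in GSI and 12 in DMSO had separate ranks at 10 h and 4 h. Over all 22180 genes these counts were 5345 and 4654. With deposited values, which carry the offset between the times, 20 in GSI and 19 in DMSO were separate. Over all genes these were 10540 and 8962.

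Of 765 single-gene values under an alternative 719 kept direction and call, 4 gained a call and 42 turned direction, none of them called. At 10 h these were Sod2 (-0.011 after cyclic loess, -0.021 in run 2), Nfkbia (0.14 in run 2) and, in run 1, Ccl4 (-0.18), Ccl7 (0.49), Ccl3 (-0.96), Tnfaip3 (-0.41) and Tnf (-0.047). At 4 h they were Il1a (-0.063), Traf1 (0.019) and Nfkbia (-0.12) in run 2, and Irak3 (-0.050), Ccl22 (-0.041) and Cxcl1 (-0.079) in run 3. For the difference Rela was at -0.012 after quantile and -0.0084 after cyclic loess normalization. With a pair left out, values at 10 h ran from -0.13 to 0.069 for Nfkbia, -0.62 to 0.32 for Ccl7, -0.19 to 0.058 for Traf1, -0.39 to 0.87 for Ccl3 and -0.096 to 0.27 for Tnfaip3. At 4 h they ran from -0.031 to 0.18 for Ccl22, -0.032 to 0.17 for Cxcl1, -0.070 to 0.52 for Saa3, -0.030 to 0.12 for Irak3 and -0.038 to 0.015 for Sod2. For the difference they ran from -0.12 to 0.12 for Traf1, -0.68 to 0.061 for Ccl4, -1.23 to 0.030 for Ccl3, -0.037 to 0.20 for Rela, -0.19 to 0.010 for Nfkbia, -0.30 to 0.067 for Tnfaip3 and -0.042 to 0.30 for Tnf. The cause was not tested.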
